A study of Mus musculus with 30 samples.

Results

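The subventricular zone (SVZ) and the striatum were compared in the 10 control mice of the study, with 1 library of each tissue from every mouse, so that 20 of the 30 libraries of the series were used. The control mice were 3 NestinTK-GCV mice (wild-type littermates given ganciclovir), 3 NestinTK-PBS mice (wild-type littermates given the vehicle PBS) and 4 NestinTK+PBS mice (transgenic mice given PBS). A control was any mouse lacking the transgene, ganciclovir or both, and its libraries were paired by the mouse number. By rising number, the NestinTK-GCV mice are called G1 to G3 here, the NestinTK-PBS mice P1 to P3 and the NestinTK+PBS mice T1 to T4. The 5 NestinTK+GCV mice, in which the neural precursors are ablated, were left out. The NestinTK transgene places thymidine kinase under the second intron of the rat Nestin gene, so that ganciclovir kills dividing Nestin-expressing cells, and NestinTK+PBS mice carry the enzyme without its substrate. The methods give an age of 6 to 8 weeks for adult C57Bl/6 mice of both sexes and name the transgenic mice beside them without a separate age. Ganciclovir or PBS was given for 4 weeks from a minipump under the skin. Xist, which is transcribed from the inactive X chromosome of females, had at least 700 counts in each of the 20 libraries, although the methods name both sexes for RNA extraction.

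The adult SVZ lines the lateral ventricle and is one of the few neurogenic regions of the rodent brain. Slowly dividing, astrocyte-like stem cells give rise to transit-amplifying cells and then to neuroblasts, which migrate to the olfactory bulb. Multiciliated ependymal cells form the ventricular wall and move cerebrospinal fluid, and the choroid plexus, which secretes that fluid, hangs in the same ventricle. The striatum lies directly beneath and consists mainly of medium spiny neurons (MSNs), inhibitory projection neurons of the direct pathway (dopamine receptor D1) and the indirect pathway (dopamine receptor D2).

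Library totals were 8.95 to 21.1 M counts (M, 1e6) in the SVZ and 2.78 to 4.69 M in the striatum. The 2 tissues were prepared with different kits, SMART-Seq v4 for the SVZ, which amplifies whole transcripts, and QuantSeq for the striatum, which reads the 3′ end, so that an effect of the tissue and an effect of the kit on a gene cannot be told apart. Levels were therefore compared as counts per M counts of the library (CPM) and as percentile ranks within each library (0 lowest, 100 highest), and emphasis was placed on cell type genes and large differences. In bulk tissue, fewer cells of a type and less RNA per cell cannot be told apart either. Of the symbols shared by both count tables, 16011 genes exceeded 1 CPM in at least 3 libraries of either tissue; 13483 did so in both, 1601 only in the SVZ and 927 only in the striatum. A gene was called when its adjusted p was below 0.05 in edgeR's paired quasi-likelihood test (Benjamini-Hochberg adjustment over the 16011 genes), the difference was at least 4-fold, and its rank differed in the same direction in all 10 mice. By this rule 916 genes (5.72% of those tested) were called higher in the SVZ and 774 (4.83%) higher in the striatum. Of these, 471 and 193 passed the filter only through the tissue where they were high, and with the filter applied in both tissues 509 (3.78%) and 540 (4.01%) of 13483 genes were called. Without the 4-fold limit and the rank rule, 3802 genes (23.7%) were higher in the SVZ and 3981 (24.9%) higher in the striatum at an adjusted p below 0.05. Across genes, the ranks of the 2 tissues of a mouse correlated at 0.805 to 0.865, compared with 0.836 to 0.956 between SVZ libraries and 0.935 to 0.976 between striatum libraries.

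Genes of ependymal cells were higher in the SVZ. Of 27 genes of ciliated ependymal cells, 26 were kept, 13 were called higher in the SVZ and none higher in the striatum, beside 5.72% and 4.83% of all genes. The median log2 fold change of the list was 2.41, against -0.05 over all genes kept. Because 6 of the 26 passed the filter through the SVZ alone, the 20 genes kept in both tissues were also counted, and 9 of these were called, beside 3.78% of all genes kept in both. In fits of 1 control group alone, 11 of 24 genes were called in NestinTK+PBS, 10 of 21 in NestinTK-PBS and 4 of 19 in NestinTK-GCV mice, beside 6.01%, 5.68% and 5.48% of all genes tested in those fits. The summed level of the list was 168 to 550 CPM in the SVZ and 43.5 to 119 CPM in the striatum, without overlap, and was 2.89-fold to 6.87-fold higher in the SVZ of each of the 10 mice.

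Tmem212, a transmembrane protein of ciliated cells, ranged from 13.2 to 65.4 CPM in the SVZ (median 36.4) and from 0.455 to 5.04 CPM in the striatum (median 2.86). Every SVZ library lay above every striatum library, with a log2 fold change of 3.56 ± 0.35 (SE, n = 10 mice, edgeR adjusted p = 5.9e-08). Ccdc153, a coiled-coil protein of ciliated cells, gave a similar picture, with 21.6 to 75.2 CPM (median 43.6) against 0.799 to 9.28 CPM (median 3.90) and a log2 fold change of 3.38 ± 0.33 (edgeR adjusted p = 5.0e-08). Rarres2, which encodes the secreted protein chemerin, also did not overlap between tissues, at 17.5 to 58.2 against 2.05 to 10.2 CPM and a log2 fold change of 2.20. Exons of other genes covered 33.6% of its exonic bases. Foxj1, the master transcription factor of motile cilia, was less separated than these genes. It measured 13.2 to 65.5 CPM in the SVZ and 2.9 to 35.7 CPM in the striatum, the tissues overlapped, and the log2 fold change of 1.07 passed the test (edgeR adjusted p = 0.0029) but not the 4-fold limit. The other called genes were the axonemal dyneins Dnah5 and Dnah11, the dynein docking protein genes Ccdc114 and Armc4, Cfap126, Pifo, Sntn, the adenylate kinase Ak7, Mia and 1110017D15Rik, with log2 fold changes of 2.02 to 3.78. Other genes covered 41.25% of the exonic bases of Mia. Dnah5 was not called in 14 of 29 alternatives, among them the fits without the mouse term, with limma-voom and without T1, G1, P1 or P2, and Armc4 was not called without T4, G2 or G3. The cilia genes Rsph4a and Ccdc39 were measured at -0.16 (95% interval -1.71 to 1.39) and -0.36 (-1.55 to 0.83), and neither passed the test.

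RFX factors, which bind the X-box, and FOXJ1, which binds a forkhead site, are known regulators of ciliary genes. Promoter windows of 250 bases before to 50 bases after the start were taken from RefSeq (GRCm38.p6), and 22 of the 27 ependymal genes had one. Both strands were searched for the full X-box consensus, its first arm GTTGCCA and the forkhead site TGTTTAC. The first arm can lie inside a full X-box. The full X-box was found in none of the 22 genes and in 0.122% of all windows. The first arm was found in 5 of the 22 genes and in 4.38% of all windows, and the forkhead site in 2 of the 22 and in 3.65% of all windows. Among the genes kept, 4.93% had the first arm in any of their windows and 3.12% the forkhead site. The 250 bases upstream of the start are shown for the 3 called genes with a match and for Hydin, a central-pair protein of motile cilia with a log2 fold change of 3.01 that was higher in rank in 9 of 10 mice and so was not called. Capitals mark the match to the first arm (or its complement TGGCAAC) or to the forkhead site (or its complement GTAAACA); a match is a run of letters and not a shown binding site.
Pifo (1 of its 2 windows), chr3:106001498-106001747, minus strand: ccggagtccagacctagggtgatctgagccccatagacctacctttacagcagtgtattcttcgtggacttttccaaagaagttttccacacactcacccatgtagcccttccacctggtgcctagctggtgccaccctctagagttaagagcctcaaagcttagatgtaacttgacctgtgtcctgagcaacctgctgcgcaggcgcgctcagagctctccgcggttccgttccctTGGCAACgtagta
Sntn, chr14:13670626-13670875, plus strand: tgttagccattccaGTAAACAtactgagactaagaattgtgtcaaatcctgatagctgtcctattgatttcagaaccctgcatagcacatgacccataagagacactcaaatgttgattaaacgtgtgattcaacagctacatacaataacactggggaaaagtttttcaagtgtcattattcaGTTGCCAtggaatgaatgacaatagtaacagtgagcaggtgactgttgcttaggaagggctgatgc
Ak7, chr12:105705732-105705981, plus strand: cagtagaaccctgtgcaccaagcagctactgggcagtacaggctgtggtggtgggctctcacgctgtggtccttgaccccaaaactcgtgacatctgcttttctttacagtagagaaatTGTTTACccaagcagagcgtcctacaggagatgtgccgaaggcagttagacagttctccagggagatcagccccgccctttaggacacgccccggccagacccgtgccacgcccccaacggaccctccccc
Hydin, chr8:110266727-110266976, plus strand: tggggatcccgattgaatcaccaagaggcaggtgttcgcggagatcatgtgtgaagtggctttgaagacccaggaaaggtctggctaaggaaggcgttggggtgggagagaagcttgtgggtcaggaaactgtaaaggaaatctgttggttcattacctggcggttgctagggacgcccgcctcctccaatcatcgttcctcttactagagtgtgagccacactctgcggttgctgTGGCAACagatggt

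In Pifo and Hydin the first arm began 13 and 14 bases before the start. Pifo, which encodes a protein of the ciliary base, measured 0.0825 to 34.9 CPM in the SVZ (median 7.65) and 0 to 1.44 CPM in the striatum (median 0.686), a log2 fold change of 3.78 (edgeR adjusted p = 5.0e-04). Sntn, a protein of the ciliary tip, carried both sites and measured 0.671 to 15.5 against 0 to 0.969 CPM, a log2 fold change of 3.53. Ak7 carried only the forkhead site and measured 3.96 to 31.9 against 0 to 4.61 CPM, a log2 fold change of 3.17. In all 3 genes the rank was higher in the SVZ in each of the 10 mice, although the ranges of the tissues overlapped. In mouse G2 Pifo had 1 count in the SVZ (0.0825 CPM) and 2 counts in the striatum (0.456 CPM), so that its CPM was higher in the striatum while its percentile rank was higher in the SVZ (11.7 against 10.7).

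**Figure D1:**
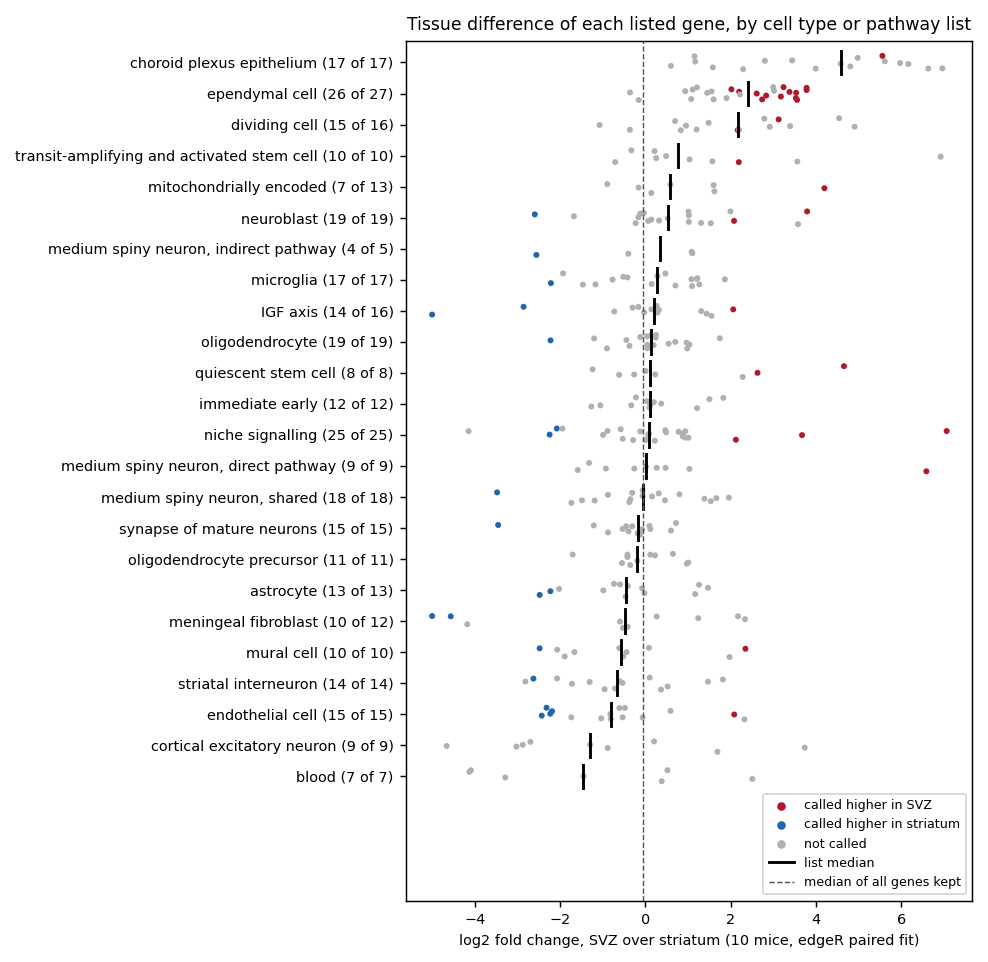
Log2 fold change of SVZ over striatum (horizontal axis; paired edgeR fit over 10 mice) of every kept gene of 24 lists, 1 point a gene and 1 row a list, with the number kept of the number listed. Red points were called higher in the SVZ, blue points higher in the striatum, grey points were not called; the black bar is the list median and the dashed line the median of all genes kept. The ependymal list has 13 red points and no blue point, whereas points of the spiny neuron, synapse and glial lists lie on both sides of the dashed line.

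Genes of dividing cells were measured at higher summed levels in the SVZ. Of 16 genes of the mitotic cycle, 15 were kept (3 of them through the SVZ alone). Called higher in the SVZ were 2 (13.3%, beside 5.72% of all genes). Without the limits 7 passed the test in that direction, beside 23.7% of all genes, and 8 did not pass it. The median log2 fold change was 2.16 (1.38 over the genes kept in both tissues, and 1.48 with the 1 gene at or under 3 counts in every striatum library set to its lower bound). The summed level was 69.0 to 205 CPM in the SVZ and 14.3 to 41 CPM in the striatum, with no overlap, and was 2.38-fold to 9.36-fold higher in the SVZ of each of the 10 mice. Top2a, the topoisomerase of replicating cells, was called (though not with SVZ counts per kb of exon), with 4.44 to 70.0 CPM (median 32.0) against 2.51 to 7.76 CPM (median 5.18) and a log2 fold change of 2.16 ± 0.36 (edgeR adjusted p = 5.1e-05). The SVZ of mouse T2 was the lowest, at 4.44 CPM, and lay within the striatal range. Mki67, the proliferation antigen Ki-67, measured 0.475 to 64.0 CPM (median 19.2) in the SVZ and 0 to 3.37 CPM (median 0.624) in the striatum. Mouse T2 was again the exception, with 0.475 CPM in the SVZ and 3.37 CPM in the striatum. Mki67, with a log2 fold change of 4.54, was not called over the 10 mice but was called in the fits that left out T2. Kif11, a spindle motor, was the other called gene, with a log2 fold change of 3.12, and passed the filter through the SVZ alone. Of the 12 genes kept in both tissues 1 was called, beside 3.78% of all genes kept in both. The mitotic kinase Cdk1 measured 0 to 19.3 CPM in the SVZ and 0.683 to 7.19 CPM in the striatum (log2 fold change 0.70, 95% interval -1.04 to 2.44), and cyclin B1, Ccnb1, 0 to 8.69 and 0 to 2.25 CPM (2.92, 0.32 to 5.51); neither passed the test.

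Genes of quiescent stem cells divided into some that were far higher in the SVZ and some that were not. Of 8 genes kept, 2 were called higher in the SVZ (25%, beside 5.72% of all genes) and none higher in the striatum (beside 4.83%). The median log2 fold change was 0.12. Thbs4, a thrombospondin of SVZ astrocytes, measured 6.45 to 134 CPM in the SVZ (median 37.8) and 0.25 to 2.77 CPM in the striatum (median 1.75). No SVZ library reached down to the striatal range, and the log2 fold change was 4.65 ± 0.49 (SE, n = 10 mice, edgeR adjusted p = 1.6e-07). Notch2, a Notch receptor, was called with a log2 fold change of 2.63. Gfap, the astrocytic intermediate filament also made by SVZ stem cells, measured 6.45 to 233 CPM (median 79.2) against 6.29 to 30.6 CPM (median 11.5). Its log2 fold change of 2.28 passed the test (edgeR adjusted p = 1.6e-05), but in mouse G3 the tissues measured 6.45 and 6.29 CPM and the rank did not favour the SVZ, so that Gfap was not called. The same SVZ library held the lowest Thbs4 and Cd24a of the 10 and the lowest summed level of the ependymal list. Vcam1, an adhesion molecule of stem cells and endothelium, and Id3, an inhibitor of differentiation, were lower in the SVZ, by -1.24 and -0.62 on the log2 scale (edgeR adjusted p = 0.0051 and 0.013), and neither reached the 4-fold limit.

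Transit-amplifying genes were measured next. Egfr, the epidermal growth factor receptor, was higher in the SVZ in rank in all 10 mice, with 12.7 to 38 against 3.88 to 12.6 CPM and a log2 fold change of 1.57 (edgeR adjusted p = 1.8e-04). Nestin itself, Nes, measured 5.12 to 15.2 CPM in the SVZ and 0.719 to 8.25 CPM in the striatum, a log2 fold change of 1.04 (95% interval 0.05 to 2.02) that did not pass after adjustment. Gsx2, a homeobox gene of the lateral germinal zone, had no count in any striatum library and 0 to 5.94 CPM in the SVZ, so that its mean in the SVZ was at least 2.94-fold higher than the striatal floor of 3 counts per library, and its rank was higher in 9 of 10 mice. All 10 genes of the list were kept, 2 of them, Gsx2 included, through the SVZ alone. Called higher in the SVZ was 1 (10%, beside 5.72% of all genes), and none was called higher in the striatum. Without the limits 3 and 1 passed the test in those directions, beside 23.7% and 24.9% of all genes, and 6 did not pass it. The median log2 fold change of the 10 genes was 0.76, and the summed level was 283 to 584 CPM in the SVZ and 298 to 573 CPM in the striatum.

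Neuroblast genes were not a uniform group. All 19 were kept in both tissues. Called were 2 higher in the SVZ (10.5%, beside 5.72% of all genes) and 1 higher in the striatum (5.26%, beside 4.83%). Without the limits 10 and 2 passed the test in those directions, beside 23.7% and 24.9% of all genes, and the median log2 fold change was 0.52. Cd24a, a surface glycoprotein of neuroblasts and ependymal cells, was the clearest, with 18.8 to 127 CPM (median 29.8) against 0.228 to 5.06 CPM (median 3.22). The tissues did not overlap, and the log2 fold change was 3.79 ± 0.31 (edgeR adjusted p = 5.4e-09). Marcksl1, an actin regulator of immature neurons, was the other, at 2.08. Dcx, the microtubule protein doublecortin of migrating neuroblasts, measured 25.4 to 114 CPM in the SVZ (median 42.8) and 17.8 to 29.9 CPM in the striatum (median 22.7), a log2 fold change of 1.02 (edgeR adjusted p = 7.5e-04) that was under the 4-fold limit. Sox11, a transcription factor of new neurons, gave 0.52, with 80.2 to 279 against 72.2 to 159 CPM. Dlx2, a homeobox gene of interneuron precursors, was higher in rank in the SVZ in 10 of 10 mice, with 8.68 to 51.8 against 1.33 to 10.2 CPM, and its log2 fold change of 1.99 lay just under the limit of 2. Pbx3, a homeobox gene of the list that is also expressed in spiny neurons, was the gene higher in the striatum, with 152 to 339 CPM against 25.7 to 96.8 CPM in the SVZ and a log2 fold change of -2.59.

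Igfbpl1, the insulin-like growth factor binding protein-like gene made by neural precursors, was not separated by tissue. In the SVZ it measured 3.14, 39.7, 6.60 and 35.4 CPM in NestinTK+PBS mice T1, T2, T3 and T4, 27.01, 5.20 and 0.656 CPM in NestinTK-GCV mice G1, G2 and G3, and 14.6, 8.68 and 5.70 CPM in NestinTK-PBS mice P1, P2 and P3. In the striatum of the same mice it measured 5.69 to 15.1 CPM, with a median of 9.63 CPM, and was present in every library. The SVZ values ran on both sides of the striatal range, with 3 libraries above it (T2, T4 and G1), 3 below it (T1, G2 and G3) and 4 within it. The log2 fold change was -0.16 (95% interval -1.22 to 0.89, n = 10 mice), which did not pass the test (edgeR adjusted p = 0.81), and the rank was higher in the SVZ in 3 of 10 mice.

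The remaining genes of the IGF axis were measured side by side. Of 16 genes 14 were kept. Called were 1 higher in the SVZ (7.14%, beside 5.72% of all genes) and 2 higher in the striatum (14.3%, beside 4.83%). The median log2 fold change was 0.20 (-0.28 with SVZ counts taken per kb of exon). Igfbp6, an IGF binding protein, was called in the SVZ, at 9.28 to 63.7 against 2.81 to 7.49 CPM (log2 fold change 2.06), but its change fell under the 4-fold limit without mouse T2, G1 or G2 (1.90 to 1.99) and without the 4 mice highest in Slc17a7 (1.82). Igfbp5, another binding protein, was higher by 1.55 (51.7 to 272 against 32.4 to 64.4 CPM, edgeR adjusted p = 2.1e-05), under the limit. The ligand Igf1 measured 0 to 9.45 against 1.70 to 6.19 CPM (log2 fold change -0.73, 95% interval -2.43 to 0.97), the receptor Igf1r 61.5 to 143 against 48.7 to 115 CPM (0.28, -0.05 to 0.61), and the binding protein Igfbp2 0.109 to 531 against 3.40 to 43.0 CPM (1.31, -0.41 to 3.03). The 2 genes higher in the striatum were the ligand Igf2 (log2 fold change -5.00; 0 to 14.4 against 7.28 to 30.6 CPM) and the signalling adaptor Irs1 (-2.86). In the annotation, exons of other genes covered 64.6% of the exonic bases of Igf2 and 30.9% of those of Irs1. The summed level of the axis was higher in the SVZ in 10 of 10 mice, at 381 to 1179 against 322 to 573 CPM, and its 3 highest SVZ values were those of mice P1, T3 and P2, whose SVZ libraries were also highest in choroid plexus genes; the part of that tissue in the IGF values was not tested.

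Signalling genes of the niche showed calls in both directions. All 25 genes were kept, 3 were called higher in the SVZ (12.0%, beside 5.72% of all genes) and 2 higher in the striatum (8.00%, beside 4.83%), and the median log2 fold change was 0.09. In the fit without the mouse term no gene of the list was called in the striatum and the median was 0.65. Bmp6, a bone morphogenetic protein, measured 0.546 to 43.8 CPM in the SVZ and at most 0.647 CPM in the striatum, where no library had more than 3 counts, so that the SVZ mean was at least 20.9-fold higher than the striatal floor. Its 3 highest SVZ values, 43.8, 41.5 and 21.4 CPM, were again those of mice T3, P1 and P2. Smo, the transducer of Hedgehog signals (5.21 to 22.6 against 0 to 2.18 CPM), and Sfrp1, a secreted Wnt antagonist (12.2 to 88.6 against 4.50 to 10.6 CPM), had log2 fold changes of 3.67 and 2.12, and Sfrp1 was not called without T3 or P1 (1.98 and 1.96). The ligand Wnt7b and the Notch target Hes5 were called higher in the striatum, at -2.24 and -2.08, and Hes5 was not called in 11 of 29 alternatives, among them each fit without 1 of the mice G1, G2 and G3. Other genes covered 31.8% of the exonic bases of Hes5. Notch1 measured 0.09 (95% interval -0.51 to 0.68) and the BMP antagonist Nog -0.89 (-3.08 to 1.31), and neither passed the test. Gli1, a Hedgehog target, was measured at -4.14 (edgeR adjusted p = 0.010), with 0 to 8.44 CPM in the SVZ and 0.216 to 3.24 CPM in the striatum, but its rank was higher in the striatum in 8 of 10 mice only.

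**Figure D2:**
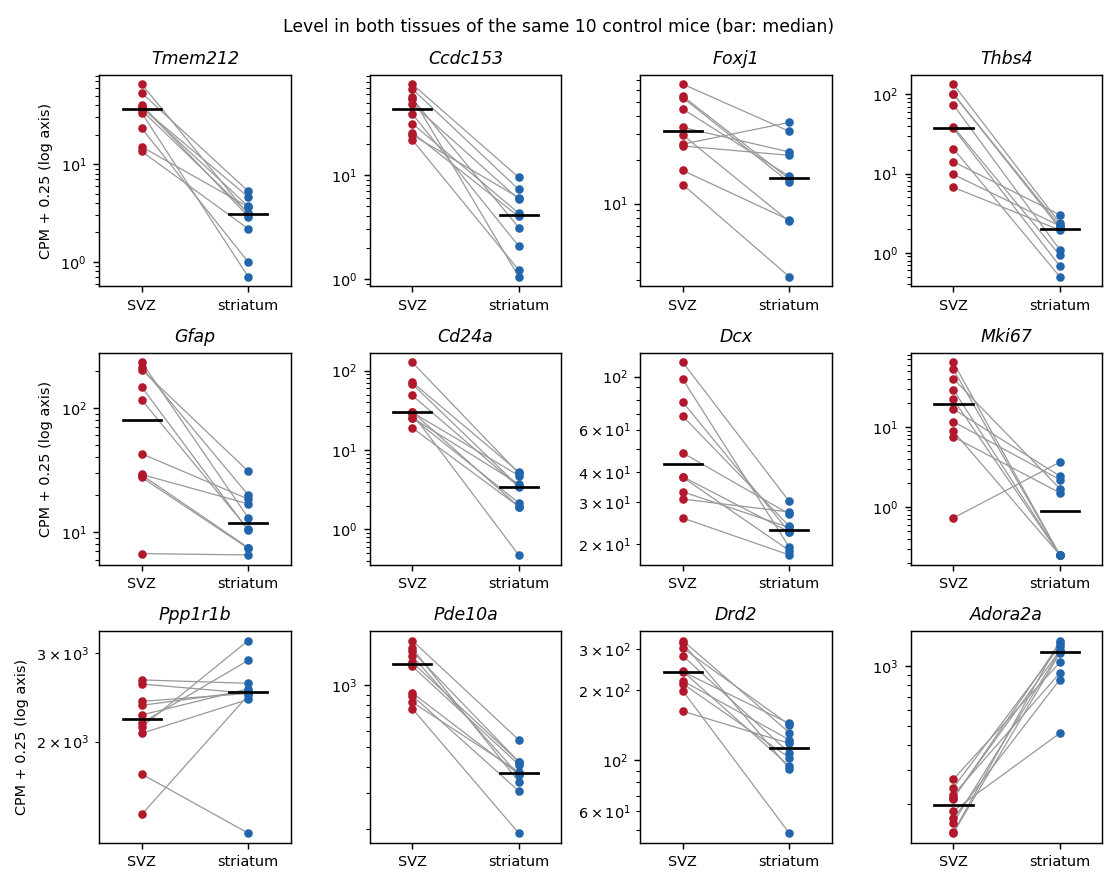
CPM plus 0.25 (vertical log axes) of 12 genes in the SVZ (red) and the striatum (blue) of the 10 control mice. Grey lines join the 2 tissues of a mouse and black bars are medians. For Tmem212, Ccdc153, Thbs4 and Cd24a every SVZ point lies above every striatum point, for Adora2a every striatum point lies above, and Ppp1r1b overlaps.

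The SVZ samples carried the label of neural precursor cells, but their libraries held genes of mature MSNs at striatal levels. All 18 genes of the shared MSN list were kept in both tissues, with a median percentile rank of 99.4 in the SVZ and 98.6 in the striatum. None was called higher in the SVZ and 1 was called higher in the striatum (5.56%, beside 4.83% of all genes). The median log2 fold change was -0.07, and the summed level was 9380 to 17589 CPM against 7146 to 16171 CPM, 0.694-fold to 1.63-fold. Ppp1r1b, which encodes the dopamine-regulated phosphatase inhibitor DARPP-32, measured 1434 to 2650 CPM in the SVZ and 1317 to 3171 CPM in the striatum, a log2 fold change of -0.31 (95% interval -0.56 to -0.06). Rgs9, a regulator of G protein signalling, gave 0.16 (-0.17 to 0.49). The individual genes were not equal, however: 6 of the 18 passed the test toward the SVZ and 7 toward the striatum, beside 23.7% and 24.9% of all genes. Pde10a, a striatal phosphodiesterase, was higher in the SVZ without overlap (771 to 1646 against 192 to 544 CPM, log2 fold change 1.53), as was Pde1b (1.66), whereas Foxp1 (-1.49) and Bcl11b (-1.19), transcription factors of spiny neurons, were lower. Rarb, a retinoic acid receptor, was the called gene, at 3.02 to 27.3 CPM in the SVZ against 69.0 to 165 CPM in the striatum (-3.48), and other genes covered 38.4% of its exonic bases.

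Markers of the 2 pathways also spread in both directions. The D1 receptor gene Drd1 was lower in the SVZ in 10 of 10 mice (260 to 477 against 373 to 930 CPM, log2 fold change -1.32), while the neuropeptide precursor genes Tac1 and Pdyn of the direct pathway measured 0.47 (95% interval 0.17 to 0.77) and 0.01 (-0.38 to 0.40) and the factor Isl1 0.27 (-0.28 to 0.82). The D2 receptor gene Drd2 was higher in the SVZ without overlap (162 to 328 against 48.1 to 144 CPM, 1.08), Gpr6 was higher (1.10), and the enkephalin precursor gene Penk measured -0.40 (-0.68 to -0.12). Adora2a, which encodes an adenosine receptor of the same neurons as Drd2, was called in the opposite direction, with 143 to 268 CPM in the SVZ and 458 to 1348 CPM in the striatum and a log2 fold change of -2.56 ± 0.16 (edgeR adjusted p = 1.5e-10). Of the 4 indirect pathway genes kept it was the 1 called (25%, beside 4.83% of all genes). Adora2a was not called with SVZ counts per kb of exon or in a limma fit of the rank differences. Chrm4, a muscarinic receptor of direct pathway neurons, was called higher in the SVZ, where it measured 4.18 to 34.6 CPM, while no striatum library had more than 3 counts, a difference of at least 16.8-fold. It passed the filter through the SVZ alone and was the 1 called of 9 direct pathway genes (11.1%, beside 5.72% of all genes).

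Striatal interneuron genes gave a median log2 fold change of -0.66 over 14 genes, with 1 called, Calb2, higher in the striatum (7.14%, beside 4.83% of all genes). Calb2 was not called without the mouse term (log2 fold change -1.67) or with limma-voom (-1.99). The summed level of the list was higher in the SVZ in 9 of 10 mice, at 0.941-fold to 2.87-fold (median 1.93-fold), so that the median over genes and the sum differed in direction. The neuropeptide genes Sst and Npy were higher in the SVZ without overlap (227 to 593 against 72.4 to 111 CPM and 98.2 to 339 against 46.3 to 82.0 CPM), with log2 fold changes of 1.81 and 1.47. Chat, of cholinergic cells, measured -0.71 (95% interval -1.65 to 0.23). Pvalb, the calcium buffer of fast-spiking cells, was at -2.81 (edgeR adjusted p = 8.1e-06), with 1.93 to 85.1 CPM in the SVZ and 16.4 to 591 CPM in the striatum, and its rank was higher in the striatum in 9 of 10 mice. Synapse genes gave a median of -0.18 over 15 genes, and of 0.051 without the 3 mice highest in Ttr. Snap25 was higher in the SVZ (0.60), and Syt1 (-1.21) and Camk2a (-0.88) were lower. The scaffold gene Dlg4 was the 1 called (6.67%, beside 4.83% of all genes), at 102 to 193 CPM in the SVZ and 829 to 1542 CPM in the striatum (-3.45).

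Called genes of the glial and vascular lists were mostly higher in the striatum (11 of 13). Over all genes, 774 (4.83%) were called there and 916 (5.72%) in the SVZ. This split did not hold with SVZ counts per kb of exon. In that fit 1 astrocyte, 3 microglial, 3 endothelial and 2 mural genes were called higher in the SVZ (9.91% of all genes). Higher in the striatum were 1 oligodendrocyte precursor, 1 microglial, 4 endothelial, 2 mural and 2 meningeal genes (8.11% of all). Gjb6, S100b, Trf, Esam and Tagln were not called in it. Of 13 astrocyte genes none was called higher in the SVZ and 2 were called higher in the striatum, the connexin gene Gjb6 (-2.48) and S100b (-2.23), which is 15.4% beside 4.83% of all genes, with a median of -0.46. Gja1, the other astrocyte connexin gene, was higher in the SVZ (median 217 against 91.1 CPM, 1.17), without overlap of its ranks, the water channel Aqp4 measured -0.02 (95% interval -0.34 to 0.29), and the glutamate transporters Slc1a3 and Slc1a2 -0.08 (-0.37 to 0.22) and -0.41 (-0.66 to -0.16). Of 19 oligodendrocyte genes 1 was called (5.26%, beside 4.83% of all genes), the transferrin gene Trf, higher in the striatum (-2.22). It was not called without mouse T2 (-1.95), and 63.5% of its exonic bases are shared with other genes. The myelin gene Mbp (0.98) passed the test toward the SVZ, Mog (0.13, -0.41 to 0.66) and Mobp (0.05, -0.35 to 0.44) did not. None of 11 oligodendrocyte precursor genes was called: Pdgfra measured 0.11 (-0.57 to 0.80), C1ql1 -0.42 (-1.76 to 0.92), Cspg4 0.64 and Gpr17 1.00, the last 2 passing the test toward the SVZ.

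Of 17 microglial genes 1 was called (5.88%, beside 4.83% of all genes), the fractalkine receptor Cx3cr1, higher in the striatum (135 to 272 against 25.5 to 61.1 CPM, -2.21). The 3 chains of complement C1q did not move together, since C1qa was lower in the SVZ (-1.93) and C1qb and C1qc higher (1.86 and 1.22), each without overlap. P2ry12 (0.70) and Csf1r (1.08) passed the test toward the SVZ. Of 15 endothelial genes 4 were called higher in the striatum (Pecam1, Kdr, Esam and Abcb1a, -2.43 to -2.19) and 1 higher in the SVZ (Itm2a, 2.08, and 2.00 and not called without mouse P3), beside 4.83% and 5.72% of all genes. None of the 4 was called with limma-voom, and Pecam1 was the 1 still called without the mouse term and with limma-voom weighted by tissue. The junction gene Cldn5 had a log2 fold change of 2.32 and was higher in rank in the SVZ in 9 of 10 mice, Flt1 measured -1.04, and Cdh5 -0.07 (95% interval -1.22 to 1.09). Of 10 mural genes 1 was called in each direction (10% each, beside 5.72% and 4.83% of all genes). The smooth muscle actin gene Acta2 was higher in the SVZ (14.2 to 60.6 against 1.94 to 10.4 CPM, 2.34) and the smooth muscle gene Tagln higher in the striatum (-2.48). Tagln passed the filter through the striatum alone, was not called in 6 of 28 alternatives, and other genes covered 67.9% of its exonic bases. Vtn (1.97), Rgs5 (-1.66) and Pdgfrb (-0.44, -1.29 to 0.40) were not called. Of 12 genes of meningeal fibroblasts 10 were kept and 2 called (20%, beside 4.83% of all genes), both higher in the striatum. These were the collagen gene Col1a1 (11.8 to 51.6 against 0.0734 to 5.28 CPM, -4.56) and Igf2. Dcn measured -0.41 (-1.78 to 0.95) and Lum had no more than 3 counts in any striatum library. None of 7 blood genes was called. The 4 haemoglobin genes were at or below 13.1 CPM in every library (Hbb-bs -1.45, -3.06 to 0.16; Hba-a1 0.52, -1.67 to 2.70; Hba-a2 0.38, -1.80 to 2.57; Hbb-bt -4.09).

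Choroid plexus genes differed widely between libraries of the same tissue. All 17 genes were kept, 7 of them through the SVZ alone, and the median log2 fold change was 4.58. Only Calml4 was called, higher in the SVZ (5.88% of the list, beside 5.72% of all genes), and it passed the filter through the SVZ alone. Without the limits 9 genes passed the test toward the SVZ and none toward the striatum, beside 23.7% and 24.9% of all genes. The summed level was higher in the SVZ in 8 of 10 mice. In fits of 1 control group, 1 of 8 genes was called in NestinTK+PBS, 2 of 5 in NestinTK-GCV and 5 of 6 in NestinTK-PBS mice. All genes gave 6.01%, 5.48% and 5.68% there. Ttr, the transthyretin secreted by the choroid plexus, measured 98259, 98809 and 44879 CPM in the SVZ of mice T3, P1 and P2 and 1.33 to 789 CPM in the other 7 SVZ libraries. In the striatum it measured 1423 CPM in mouse T2 and 0.533 to 30.04 CPM in the other 9 libraries. The fitted log2 fold change of 5.97 had a 95% interval of 2.07 to 9.87 (edgeR adjusted p = 0.012). Kl, Folr1 and Kcne2, further genes of this epithelium, had fitted values of 4.97, 6.63 and 6.16, and Folr1 measured 399, 406 and 198 CPM in the same 3 SVZ libraries and at most 18.7 CPM in any other. Without these 3 mice, 930 genes (6.15% of those tested) were called higher in the SVZ and 816 (5.39%) higher in the striatum. Of 25 ependymal genes 10 were then called higher in the SVZ.

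Genes of cortical excitatory neurons, which are absent from the striatum itself, marked other libraries. Slc17a7, the vesicular glutamate transporter of cortex, measured 342 CPM in the SVZ and 398 CPM in the striatum of mouse G2, 42.6 CPM in the SVZ of mouse G1, and 206, 93.1, 56.6 and 40.3 CPM in the striatum of mice T4, T2, G3 and T1. The remaining libraries measured 0.112 to 4.47 CPM in the SVZ and 2.56 to 7.03 CPM in the striatum. The fitted log2 fold change was -3.02, no gene of the 9 was called, and Neurod6 and Tbr1 measured -1.30 (95% interval -4.49 to 1.90) and -2.69. The summed level of the list was 7.96 to 833 CPM in the SVZ and 18.4 to 676 CPM in the striatum.

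The striatum library of mouse T2 stood apart from the other 9. Its summed MSN list was 7146 CPM against 12605 to 16171 CPM in the other striatum libraries, its oligodendrocyte list 8025 CPM against 3070 to 6150 CPM, and Tcf7l2, a transcription factor of thalamic neurons and oligodendrocytes that was named after its values were seen, 356 CPM against 17.5 to 31.2 CPM. With mouse T2 left out, 962 genes (6.11% of those tested) were called higher in the SVZ and 821 (5.21%) higher in the striatum. Of 26 ependymal genes 13 were then called higher in the SVZ.

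**Figure D3:**
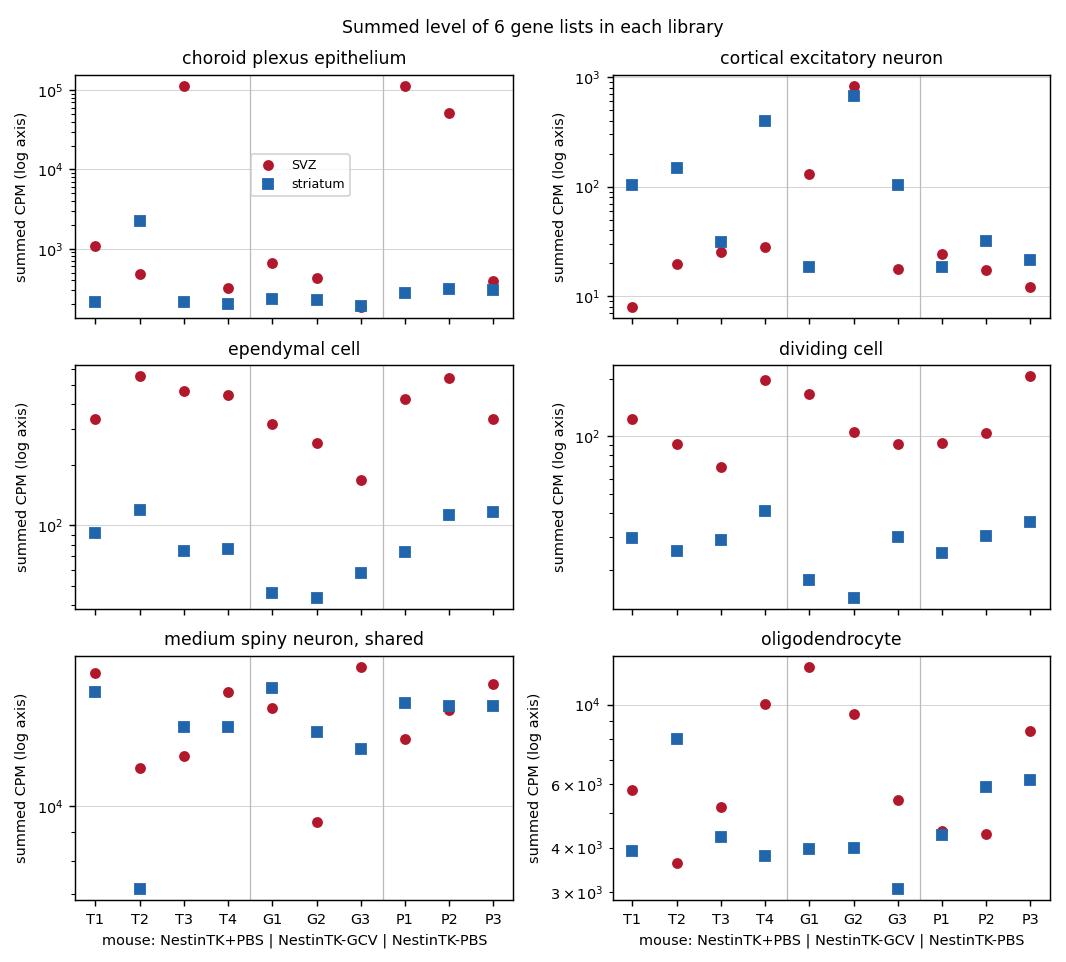
Summed CPM of 6 gene lists (vertical log axes) in each SVZ library (red circles) and striatum library (blue squares), with mice along the horizontal axis and grey lines between the 3 control groups. The ependymal and dividing cell lists are higher in the SVZ of every mouse, the choroid plexus list reaches 52135 CPM or more in the SVZ of 3 mice, and the spiny neuron list overlaps, with the striatum of mouse T2 lowest.

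Outside the lists, the largest called differences among protein-coding genes whose ranks did not overlap were examined, 10 in each direction. Higher in the SVZ were Cdr1, Hipk4, Klhl34, Ccdc85c, Epyc, Dnah12, Proz, Slc25a30 and 1700024G13Rik, none of which had more than 3 counts in any striatum library, and Lars2. The lower bounds ran from 6.89-fold for 1700024G13Rik to 837-fold for Cdr1, which measured 638 CPM on average in the SVZ. Lars2, the mitochondrial leucyl-tRNA synthetase, measured 18820 ± 5297 CPM in the SVZ and 31.3 ± 6.5 CPM in the striatum (SD, n = 10), a log2 fold change of 9.06. Its median percentile rank was 99.98 in the SVZ and 66.4 in the striatum, and the origin of its SVZ reads was not tested. Dnah12, an axonemal dynein of motile cilia, averaged 7.96 CPM in the SVZ and had no count in the striatum (at least 10.5-fold). Higher in the striatum were Ilk, Ccdc22, Pdcd2, Pcdhga10, Sco2, Ucp1, Med10, Zfp784, Nanp and Arhgap22. Apart from Lars2, every gene named here in either direction passed the filter only through the tissue where it was high. These differences are therefore given as a description. Ilk, the integrin-linked kinase, averaged 12.5 CPM in the striatum with no count in any SVZ library (at least 52.8-fold), and Med10, a subunit of the Mediator complex, averaged 39.5 CPM against 0.198 CPM.

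Position in the annotation moved with these extremes. In 7 of the 10 genes higher in the striatum (Ilk, Ccdc22, Pdcd2, Pcdhga10, Sco2, Med10 and Zfp784), exons of other genes on either strand covered 89.7% to 100% of the exonic bases, and Cdr1 was covered to 100%, from the opposite strand. Over all 15858 annotated genes kept, 1.90% had at least 50% of their exonic bases covered, compared with 3.19% of genes called higher in the SVZ, 7.71% of genes called higher in the striatum and 21.2% of the 52 called higher in the striatum with at most 3 counts in every SVZ library. No source used here gives the strand option of the read counter, so that reads of overlapping genes cannot be assigned with certainty, and the part of overlap in these differences was not tested. Tmem212, Ccdc153, Thbs4, Cd24a, Chrm4, Dlg4 and Adora2a shared no exonic base with another gene. Gene type also differed: 162 of 328 processed pseudogenes (49.4%) were called higher in the SVZ and 43 (13.1%) higher in the striatum, against 4.50% and 4.33% of 13761 protein-coding genes. Reads of a pseudogene and its parent gene can be hard to separate, so these values are uncertain. Among protein-coding genes, 13 of 35 genes of the histone clusters were called higher in the SVZ. Of the 13 protein-coding genes of the mitochondrial genome 7 were kept; mt-Nd6 was called higher in the SVZ (958 to 2368 against 66.8 to 122 CPM, log2 fold change 4.19), mt-Co1 was higher by 1.6 and mt-Nd1 by 0.59, mt-Cytb measured 0.14 (95% interval -0.16 to 0.44), and mt-Atp6 was not kept.

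The tissue difference was then compared between the 3 control groups, which differ in transgene and treatment. No gene of 16011 had a tissue difference that differed between groups at an adjusted p below 0.05 (edgeR quasi-likelihood F-test with the mouse as a block), 978 genes had an unadjusted p below 0.05, and limma-voom gave 0 genes and 1201 genes. Leaving out 1 mouse at a time gave 0 to 4 genes. With 3 or 4 mice a group and a wide spread in the SVZ (biological coefficient of variation 0.837, against 0.246 in the striatum), the smallest adjusted p was 0.129, for Gapdh and Pvalb. In fits of each control group alone, 298 genes were called higher in the SVZ and 297 higher in the striatum in all 3 groups. Each fit tested 12866 to 14028 genes and called 5.48% to 6.01% of them in the SVZ and 4.63% to 5.91% in the striatum. All but 1 of the genes shared by the 3 groups were called over the 10 mice as well. Because these fits use the same 20 libraries, that agreement is not independent support. Cell type genes called in all 3 groups were Ccdc153, Tmem212, Ak7, Thbs4, Cd24a, Chrm4 and Acta2 in the SVZ and Pbx3, Rarb, Adora2a, Dlg4, Gjb6 and Col1a1 in the striatum.

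Since both tissues came from the same animals, the levels of 10 genes were correlated across the 10 mice, for blood (Hbb-bs, Hba-a1), neuronal activity (Fos, Egr1), the circadian clock (Dbp, Per1), choroid plexus (Ttr), neuroblasts (Igfbpl1), the direct pathway (Drd1) and 1 further gene. Fos, the immediate early gene induced by neuronal activity, gave the highest correlation of log2 CPM, with Pearson's r = 0.76 (permutation p = 0.0125, adjusted over 10 genes p = 0.125) and Spearman's rho = 0.72 (permutation p = 0.0235, adjusted p = 0.235). Fos measured 151, 82.3 and 65.9 CPM in the SVZ and 24.5, 26.9 and 17.0 CPM in the striatum of mice T2, P2 and T3, the 3 highest mice in both tissues. After adjustment the correlation did not pass the threshold. With the 3 control group means removed r was 0.76, and without the 2 mice farthest from the median SVZ level r was 0.95 (permutation adjusted p = 0.0061, 8 mice). On percentile ranks r was 0.85 (permutation adjusted p = 0.0304). The other 9 genes gave r of at most 0.61 (Hbb-bs), with Drd1 at 0.48, Egr1 at 0.20, Ttr at 0.19 and Igfbpl1 at -0.05. None of them passed the threshold, unadjusted or adjusted, in the main permutation test of log2 CPM. On percentile ranks Drd1 had r = 0.65 (permutation adjusted p = 0.0304) and rho = 0.58 (permutation p = 0.0842). Hbb-bs had a rho of 0.45, and r was 0.54 without the 2 mice farthest from the median. With the 3 control group means removed its r was 0.68 (permutation p = 0.035, adjusted p = 0.175). Across the 12 immediate early genes the median log2 fold change was 0.10 and none was called: Fos measured 1.21, Egr1 -1.06, Arc 1.5 and Npas4 0.10 (95% interval -0.78 to 0.97).

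**Figure D4:**
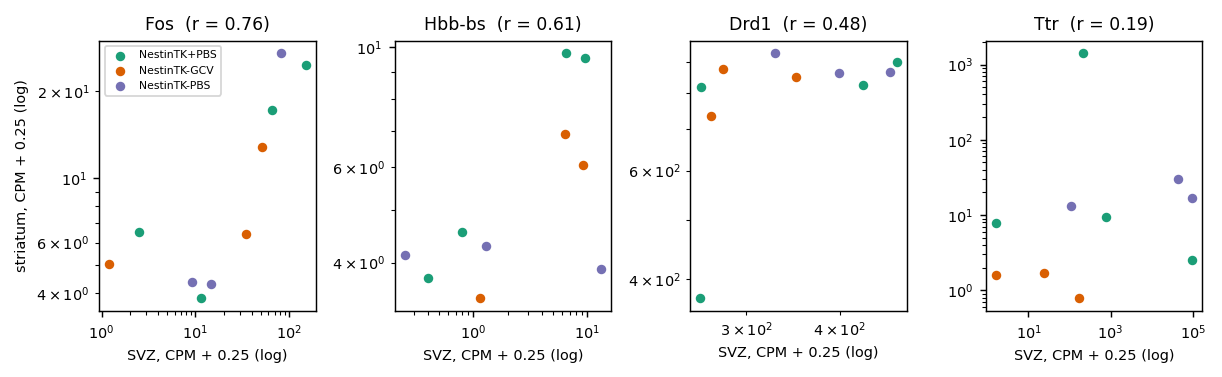
Level of 4 genes in the SVZ (horizontal log axis, CPM plus 0.25) and the striatum (vertical log axis, CPM plus 0.25) of the same mouse, 1 point a mouse, coloured by control group, with Pearson's r of log2 CPM over 10 mice in each title. The Fos points rise together (r = 0.76), whereas the Ttr points, of which 3 lie at 44879 CPM or more in the SVZ and 1 at 1423 CPM in the striatum, do not.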

How the data were processed

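The values deposited by the authors were raw read counts per gene in each tissue, without normalization. Reads were trimmed with Trimmomatic (version 0.36 in the submitters' processing notes; the methods name another version) and, according to both, aligned with STAR 2.5.3a to mm10 with Gencode annotation, and assigned to genes with featureCounts. The symbols of the tables differed (53278 in the SVZ, 50508 in the striatum, 47918 shared), and shared symbols held at least 99.4% of the counts of every library.

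TMM factors were used to scale the libraries, and genes were modelled in edgeR 4.0.16 (R 4.3.3, limma 3.58.1) with mouse and tissue as terms. Mouse numbers mark the same animal. Over 8151 genes above 10 CPM, the deviations of the 2 libraries of a mouse from their group means correlated at -0.04 to 0.20 (median 0.05), and a mouse's own striatum library was its best match in 4 of 10 mice. A gene at or under 3 counts in every library of a tissue was given a lower bound, computed with 3 counts per library in place of that tissue's mean, which covers counting error only. Correlations used 100000 permutations (two-sided), with Benjamini-Hochberg adjustment. DESeq2 1.42.0, limma-voom, other filters and scalings and left-out mice were alternatives. GENCODE vM21 gave gene types and exon overlap. The reads carry no molecular identifiers, so that a count is not a number of molecules.

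Members and gene lists were chosen with earlier results of these data known. The genes to name were the first 4 of each list, Igfbpl1, and, outside the lists, the 10 protein-coding genes with the largest called difference in each direction and no overlap of ranks; other list genes were named after their values were seen. Mice of 1 group are separate animals, with 1 library per tissue. Some genes of the lists are counted but not reported here by name.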

Additional observations from a re-analysis of the deposited data

Results flagged for a closer look

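For each of the 24 lists the mean log2 CPM was compared among the 10 libraries of a tissue, and in 8 of 48 series 1 library lay apart from the others by Dixon's criterion, which chance meets in about 1 of 20 series. The striatum of NestinTK+PBS mouse T2 was apart in 4 of them. It was highest in choroid plexus genes, at 3.81 against -0.67 to 0.71, and lowest in shared spiny neuron genes (8.03 against 8.92 to 9.27), in direct pathway genes (4.72 against 5.17 to 5.55) and in indirect pathway genes (7.32 against 8.39 to 8.82). NestinTK-GCV mouse G2 was apart in 3 series: its SVZ was lowest in indirect pathway genes, at 7.49 against 8.10 to 8.69, and in mitochondrially encoded genes, at 10.96 against 11.76 to 12.25, and its striatum was highest in interneuron genes, at 3.78 against 3.10 to 3.45. The SVZ of NestinTK-PBS mouse P3 was lowest in interneuron genes, at 1.4 against 2.52 to 3.53.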

How the results depend on the processing

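With mice left out in turn, 901 to 962 genes were higher in the SVZ and 760 to 840 in the striatum, and 0 to 4 genes differed between control groups (4 without mouse T3, 3 without G1). The filter applied in both tissues gave 509 genes in the SVZ and a dividing cell median of 1.38, and a 2-fold limit gave 1698 and 1794 genes. Without the replicate block (the pairing by mouse) 946 and 634 genes were called, the precursor cell (oligodendrocyte) median was 0.12, reversed, and the niche median 0.65. SVZ counts per kb of exon gave 1572 and 1286 genes and medians of 3.16 (ependymal), 0.48 (direct pathway), 1.51 (indirect pathway), -1.29 (synapse), -0.56 (oligodendrocyte precursor), 1.10 (microglia), 0.49 (niche) and 2.85 (mitochondrial), with blood at 1.10 and the IGF axis at -0.28, both reversed. Without the 3 mice highest in Ttr the synapse median was 0.051, reversed. Without the 4 mice highest in Slc17a7, an alternative chosen after seeing the data, for the median log2 fold change, blood gave -3.71 and niche genes 0.46. In that fit 8 of 17 choroid plexus genes were called higher in the SVZ, beside 6.62% of all genes. The oligodendrocyte precursor median ran from -0.44 to 0.18 with mice left out and was reversed without T2 (0.18) and P2 (0.09). Fos correlated at 0.95 without 2 mice and at 0.85 on ranks, and Drd1 at 0.65 on ranks, each past the threshold. Of the 48 called list genes 12 were called in every alternative that tested them (the 2-fold limit aside), 23 were not called in 1 to 4 of them and 13 in 5 or more, among them Dnah5 (14 of 29), Hes5 (11), Esam and Abcb1a (8 each) and Calb2 (7). A left-out mouse ended the call of 12 genes, including Dnah5 (T1, G1, P1 or P2; log2 fold change 1.79 to 1.99), Hes5 (G1, G2 or G3; -1.95 to -1.86), Igfbp6 (T2, G1 or G2; 1.90 to 1.99), Armc4 (T4, G2 or G3; 2.83 to 2.98), Marcksl1 (T4 or G1; 1.94 to 1.95), Sfrp1 (T3 or P1; 1.96 to 1.98), Abcb1a (G2 or P2; -1.97 to -1.94), Trf (T2; -1.95), Esam (T2; -1.89), Kdr (G1; -1.97) and Itm2a (P3; 2.00). The cause was not tested. DESeq2 (856 and 774 genes) and limma-voom (884 and 676) stayed within 1.5 times of the reported counts. So did a limma fit of rank differences with a limit of 20 percentile points (886 and 973). Similar counts did not mean the same genes. The rank fit called 560 of the 916 genes (61.1%) and 564 of the 774 (72.9%), whereas DESeq2 called 848 and 770 of them. The shallower striatum limits low genes: 3 counts correspond to 0.762 CPM there and to 0.238 CPM in the SVZ.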

Other observations

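Of 77 ribosomal protein genes 14 were called higher in the SVZ and 1 higher in the striatum, beside 4.50% and 4.33% of protein-coding genes, and their median log2 fold change was 0.71, given as a description without a test. Among protein-coding genes the share called higher in the SVZ was 7.67% among the 3442 genes with the shortest exons in sum (up to 2887 bases) and 2.76% among the 3440 with the longest (6967 bases or more). The share called higher in the striatum fell as well, from 5.40% to 3.08%. Spearman's rho between log2 fold change and exon length was -0.075 over 13761 genes. Over 8151 genes above 10 CPM in both tissues, the correlation between the tissues of a mouse had a median of 0.07 (quartiles -0.19 and 0.31), with 54 genes above 0.8 and 21 below -0.8. The highest was Specc1 at 0.96, with Eif1ax at 0.95, Stat5b at 0.92 and Camk2d at 0.91, given as a description of these 10 mice without a test.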
